A study of Mus musculus with 28 samples.

Results

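C-type lectin receptors are membrane proteins of innate immune cells that were named for a calcium-dependent sugar-binding fold, although many of them bind other ligands. The 9 genes described here, *Clec7a*, *Clec4a1*, *Clec4a2*, *Clec4a3*, *Clec4d*, *Clec4e*, *Clec4n*, *Clec5a* and *Clec12a*, were taken by symbol from the 48587 genes of the deposited count table. The study sequenced RNA of microglia, the resident macrophages of the brain, sorted from the hippocampus as CD11b+CD45low cells without staining for lymphoid, Ly6C and Ly6G antigens. All mice were 16-week-old males on a C57BL/6J background. The 5xFAD mice were heterozygous for transgenes of mutant human APP and PS1 under the neuron-specific Thy-1 promoter, and their non-transgenic littermates served as wild-type (WT) mice. The specific-pathogen-free (SPF) groups held 5 WT and 3 5xFAD mice, the germ-free (GF) groups 4 WT and 5 5xFAD mice, and the antibiotic-treated (ABX) groups 5 WT and 6 5xFAD mice. ABX mice drank vancomycin, cefoxitin, gentamicin and metronidazole for 8 weeks, whereas GF mice were born without microbes in another facility, so that germ-free housing and the source of the animals cannot be told apart. Mouse FAD_GF_201 is labelled 5xFAD in its title and genotype and WT in its description, and it was used as a GF 5xFAD mouse. Its *Clec7a* level was 305 CPM (counts scaled to a common library total), and the highest WT mouse had 37.8 CPM. That level is part of the *Clec7a* results below and is no independent evidence of the genotype.

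Receptors of this family work in opposite directions. *Clec7a* encodes Dectin-1, which binds fungal beta-glucan and signals through its own cytoplasmic tail to the kinase Syk, and its transcript is a familiar marker of microglia that gather at amyloid plaques. Dectin-2 (*Clec4n*), Mincle (*Clec4e*) and MCL (*Clec4d*) depend on the adaptor FcR-gamma (*Fcer1g*), and *Clec5a* on the adaptor DAP12 (*Tyrobp*), whereas the receptors DCIR (*Clec4a2*) and *Clec12a* carry inhibitory motifs that recruit phosphatases. *Clec4a1* and *Clec4a3* are further members of the DCIR group.

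All 9 genes lie on mouse chromosome 6 (GRCm38, Gencode M21). *Clec4a1*, *Clec4a3*, *Clec4a2*, *Clec4n*, *Clec4d* and *Clec4e* follow each other in this order within 368 kb (chr6:122921848-123289870), *Clec12a* (chr6:129342691-129365303) and *Clec7a* (chr6:129461591-129472779, minus strand) are neighbours 96288 bases apart, and *Clec5a* stands alone (chr6:40574894-40585821, minus strand). Gencode lists 8 of them as protein-coding and *Clec7a* as a polymorphic pseudogene. Because the reads had 50 bases, each member was searched for 50-base stretches that also occur in transcripts of other genes. *Clec7a*, *Clec4a1*, *Clec4a3*, *Clec4d*, *Clec4e* and *Clec5a* had none. In *Clec4a2* 6.83% of the stretches were shared, most often with its relatives *Clec4a4* (3.85%) and *Clec4b1* (2.3%), so a small part of its count is uncertain, and in *Clec4n* and *Clec12a* the share was 0.686% and 0.457%.

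RefSeq start-site windows of the same build, from 250 bases before to 50 bases after the start, were at hand for 8 of the 9 members. Shown here are those of *Clec7a* and *Clec12a*, neighbours that were both higher in SPF 5xFAD mice, and of *Clec4a2*, which was lower in 5xFAD mice under every condition. Capitals mark the letters GAGGAA, the core of the box bound by the myeloid factor PU.1, TGANTCA, the AP-1 motif, and the NF-kB motif, searched on both strands.
Clec7a, chr6:129472730-129473029, minus strand: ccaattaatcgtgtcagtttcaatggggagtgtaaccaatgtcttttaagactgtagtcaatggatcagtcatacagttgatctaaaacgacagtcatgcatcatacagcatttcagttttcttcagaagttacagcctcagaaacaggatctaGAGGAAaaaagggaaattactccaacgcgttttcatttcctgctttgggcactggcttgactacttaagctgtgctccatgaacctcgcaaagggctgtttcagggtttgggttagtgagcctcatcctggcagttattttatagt
Clec12a, chr6:129349994-129350293, plus strand: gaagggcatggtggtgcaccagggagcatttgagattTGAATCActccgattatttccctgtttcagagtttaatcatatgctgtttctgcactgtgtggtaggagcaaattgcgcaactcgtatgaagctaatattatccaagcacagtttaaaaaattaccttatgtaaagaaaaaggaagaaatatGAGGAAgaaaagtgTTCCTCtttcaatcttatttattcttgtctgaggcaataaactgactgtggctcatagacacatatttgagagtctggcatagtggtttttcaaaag
Clec4a2, chr6:123122440-123122739, plus strand: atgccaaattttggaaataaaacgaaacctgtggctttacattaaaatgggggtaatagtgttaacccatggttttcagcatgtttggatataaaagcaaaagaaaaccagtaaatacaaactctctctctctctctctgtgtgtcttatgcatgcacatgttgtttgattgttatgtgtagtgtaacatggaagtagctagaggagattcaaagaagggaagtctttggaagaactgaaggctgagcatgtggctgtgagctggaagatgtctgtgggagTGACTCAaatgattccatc
The PU box letters occurred in 7 of the 8 members with a window (in *Clec7a* 96 bases before the start) and not in the *Clec4a2* window, and they are common letters, present in 28.3% of all 32851 windows. The AP-1 letters occurred in *Clec12a* and *Clec4a2* and in 7.81% of all windows. The NF-kB letters were found in *Clec4a1* alone among the members and in 50.8% of all windows. The *Clec12a* and *Clec4a2* windows lie inside the longer Gencode gene models. A match is a description of the sequence and not a bound site.

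The libraries held 14441610 to 29977395 gene counts. A set of 10 microglial marker genes, *P2ry12* and *Tmem119* among them, together made up 52604 to 60514 CPM in WT mice and 40096 to 50542 CPM in 5xFAD mice. Markers of most other cells were low but uneven between groups. A sum of 6 B cell markers was higher, with group means of 626 to 746 CPM, and 2 of these genes passed the filter on low counts. A sum of 12 neutrophil markers reached 62.5, 193 and 265 CPM in the 3 SPF 5xFAD mice and 144 CPM in FAD_ABX_1151, and at most 5.47 CPM in the other 24 mice. A sum of 10 markers of border-associated macrophages, the macrophages of the meninges and perivascular spaces, was highest in ABX 5xFAD mice (median 164 CPM, 36.8 to 272), against 3.88 to 5.94 CPM in ABX WT and 3.48 to 8.62 CPM in SPF WT mice. A sum of 10 monocyte markers was 23.7 to 42.8 CPM in SPF 5xFAD and 17.9 to 59.2 CPM in ABX 5xFAD mice, against 8.52 to 14.3 and 6.02 to 11 CPM in SPF WT and ABX WT mice. A sum of 10 dendritic cell markers was 44.6 to 109 CPM in ABX 5xFAD against 47.3 to 64.1 CPM in ABX WT mice. Neither of these 2 lists moved as a whole. In SPF 5xFAD and SPF WT mice *Chil3* had medians of 15.1 and 0 CPM, *Ccr2* 8.46 and 6.33 and *Plac8* 0.379 and 1.36. In ABX 5xFAD and ABX WT mice *Cd209a*, a lectin itself, had medians of 14.1 and 0 CPM. There *Flt3* had 2.62 and 0.655, *Batf3* 16.4 and 19.7 and *Siglecg* 9.11 and 13.5 CPM. The labels number SPF WT, ABX WT and SPF 5xFAD mice and FAD_ABX_1151 by an index and a mouse number, and all GF and the other 5 ABX 5xFAD mice by an index and a group. Some index numbers are used once for a WT mouse and once more for an SPF 5xFAD mouse or FAD_ABX_1151, and these 4 5xFAD mice are the 4 libraries with the high neutrophil markers. The labels do not call these series batches, and outside GF mice they cannot be told apart from the genotype. They also separate the SPF 5xFAD mice from all GF 5xFAD mice and from all ABX 5xFAD mice but FAD_ABX_1151.

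Of the members, 4 were abundant, and their order changed with the genotype. On the TPM scale, which corrects for gene length and therefore allows levels of different genes to be compared, *Clec4a3* led in SPF WT mice with 218 TPM (204 to 239, n = 5), followed by *Clec5a* with 173 to 195 TPM and *Clec4a2* with 77.1 TPM (65.9 to 94.6), while *Clec7a* had 36.2 TPM (29.5 to 45.3). These 4 ranges did not overlap. In ABX WT mice *Clec4a3* and *Clec5a* overlapped, at 183 to 272 and 190 to 216 TPM. In 5xFAD mice *Clec7a* came first under all 3 conditions, at 458 TPM (379 to 598) for SPF, 445 TPM (323 to 513) for GF and 351 TPM (304 to 394) for ABX mice, followed by *Clec5a* and *Clec4a3* (163 and 143 TPM in SPF, 120 and 116 in GF, 156 and 165 in ABX mice), whose ranges overlapped in each 5xFAD group. The remaining 5 members were scarce. *Clec4a1* had reads in all 28 libraries but a median of only 2.22 TPM, *Clec12a* had reads in 16 libraries and *Clec4n* in 15. *Clec4d* and *Clec4e* were close to absent and were removed by the filter on low counts, so that 7 of the 9 members were tested.

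**Figure D1:**
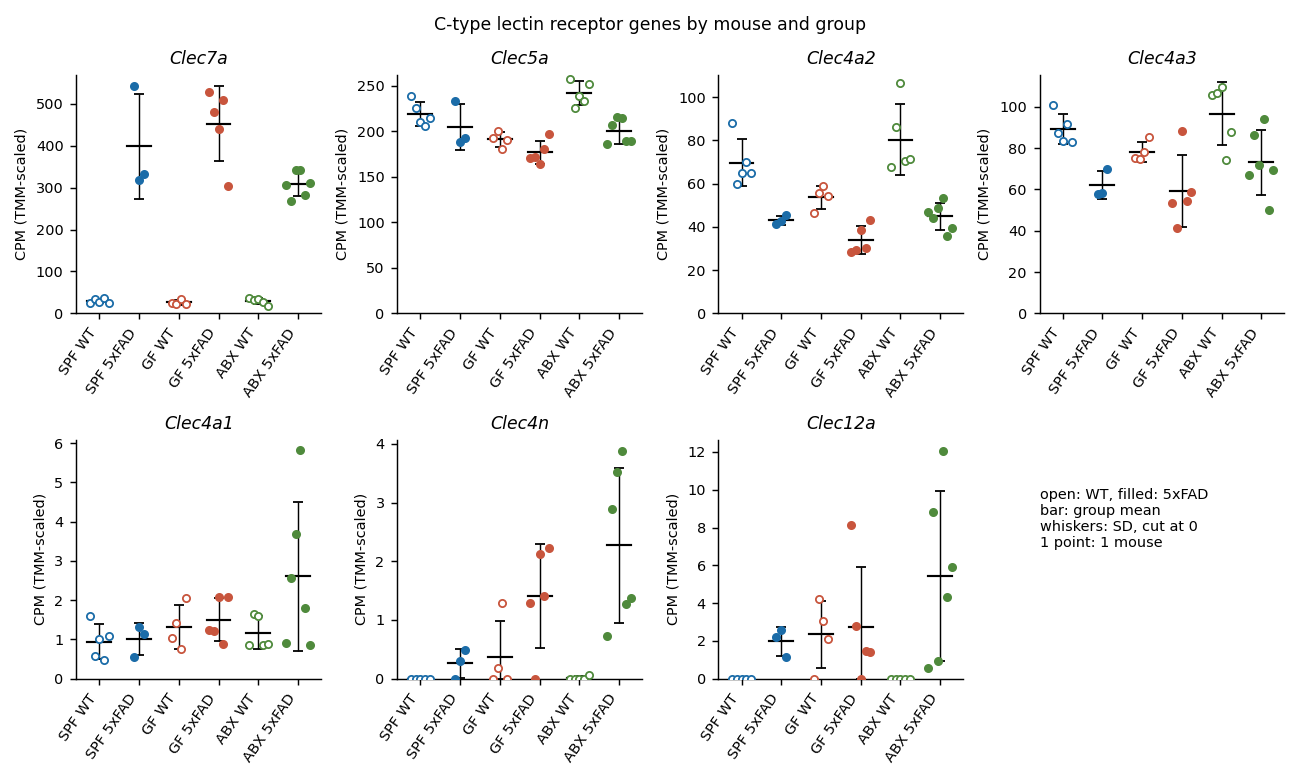
Expression of the 7 tested members in every mouse, in TMM-scaled CPM on a linear axis from 0, with WT mice as open and 5xFAD mice as filled points, the group mean as a bar and the SD as whiskers cut at 0. *Clec7a* sits between 18.1 and 37.8 CPM in the 14 WT mice and between 269 and 544 CPM in the 14 5xFAD mice, while *Clec4a2* lies lower in 5xFAD than in WT mice under each condition.

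The first comparison asked which members differ between 5xFAD and WT microglia under each microbial condition. It was fitted with edgeR's quasi-likelihood test across 15298 genes, and a member was called at a Benjamini-Hochberg adjusted p under 0.05. *Clec7a* was called higher and *Clec4a2* lower in all 3 conditions. *Clec12a* was called higher in SPF and ABX mice, *Clec4n* higher and *Clec5a* lower in ABX mice. Thus 2 members were higher and 1 was lower in SPF mice, where 3.73% of all tested genes were called higher and 0.837% lower. In GF mice 1 was higher and 1 lower, against 9.43% and 6.2% of all genes, and in ABX mice 3 were higher and 2 lower, against 9.45% and 4.98%. *Clec12a* had no read in SPF WT and ABX WT mice, and *Clec4n* only 2 reads in ABX WT mice. Both passed the filter on low counts through other groups, so a lower call was hardly possible there. In bulk RNA, fewer cells of a type and less RNA per cell cannot be told apart.

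*Clec7a* had the smallest p of the members in each of these comparisons. The 5 SPF WT mice had 24.7, 33.2, 27.1, 37.1 and 25.1 CPM, and the 3 SPF 5xFAD mice 544, 318 and 333 CPM. The 4 GF WT mice had 25.5, 22.5, 35.2 and 21.6 CPM, and the 5 GF 5xFAD mice 528, 481, 440, 509 and 305 CPM. Every 5xFAD mouse stood above every WT mouse, and the lowest GF 5xFAD value was that of FAD_GF_201, the mouse with conflicting labels. The 5 ABX WT mice had 37.8, 31.2, 34.8, 27.1 and 18.1 CPM, and the 6 ABX 5xFAD mice a median of 309 CPM, from 269 to 342. Relative to WT, the log2 fold change was 3.76 ± 0.207 (SE) for SPF, 4.11 ± 0.219 for GF and 3.38 ± 0.19 for ABX animals, that is 13.5, 17.3 and 10.4 times. The adjusted p from edgeR was 1.31e-13, 5.81e-14 and 1.72e-13, which gave *Clec7a* rank 3, 3 and 4 by p among all genes tested. An exact two-sided permutation test over the mice gave p = 0.00216 in ABX mice, the smallest value that 6 against 5 mice allow, and 0.0438 after adjustment over 81 such tests. In SPF and GF mice the exact p was 0.0179 and 0.00794, likewise the smallest possible, with adjusted values of 0.0851 and 0.0714.

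*Clec4a2*, the inhibitory receptor DCIR, moved the other way. The SPF WT mice had 88.1, 60, 65.1, 70 and 64.9 CPM and the SPF 5xFAD mice 41.4, 42.6 and 45.5 CPM. The GF WT mice had 46.4, 55.5, 59.1 and 54.3 CPM and the GF 5xFAD mice 28.6, 29.2, 38.8, 30.2 and 43 CPM. The ABX WT mice had 67.6, 86.2, 107, 70.4 and 71.5 CPM, and the ABX 5xFAD mice a median of 45.7 CPM, from 35.7 to 53.6. The WT and 5xFAD mice of a condition did not overlap. The log2 fold change was -0.69 ± 0.163 in SPF (edgeR adjusted p = 0.00843), -0.66 ± 0.147 in GF (0.00173) and -0.84 ± 0.132 in ABX mice (3.24e-05). The SPF call rested on 3 5xFAD mice and was lost without FAD_SPF_1144 (adjusted p = 0.0685) or FAD_SPF_1146 (0.0567).

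The other abundant members lay lower in 5xFAD mice by smaller amounts. *Clec4a3* had 61.9 ± 6.78 CPM (SD, n = 3) in SPF 5xFAD against 89.3 ± 7.38 (n = 5) in SPF WT mice, 59.2 ± 17.4 (n = 5) against 78.3 ± 4.86 (n = 4) in GF mice, and 73.1 ± 15.6 (n = 6) against 96.7 ± 15.3 (n = 5) in ABX mice. The SPF groups did not overlap and the GF and ABX groups did. Its log2 fold change of -0.53 ± 0.182, -0.40 ± 0.164 and -0.40 ± 0.148 missed the threshold in SPF, GF and ABX mice, with edgeR adjusted p of 0.11, 0.099 and 0.0675. It passed in all 3 with limma's voomWithQualityWeights, the method the study names, at 0.00737, 0.0344 and 0.0364. *Clec5a*, which pairs with DAP12, had 200 ± 13.6 CPM in ABX 5xFAD (n = 6) and 242 ± 13.1 CPM in ABX WT mice (n = 5), without overlap. There it was lower by a log2 fold change of -0.27 ± 0.0702 (edgeR adjusted p = 0.00791), a call that was lost when only those 2 groups were fitted (0.055) or without the filter on low counts (0.0572). In SPF and GF mice the values were -0.10 ± 0.0851 and -0.11 ± 0.078, and the 95% intervals ran from -0.27 to 0.08 and from -0.27 to 0.05. Whether the difference depended on the condition was not shown, the interaction of ABX against GF mice being -0.16 with an adjusted p of 0.477.

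**Figure D2:**
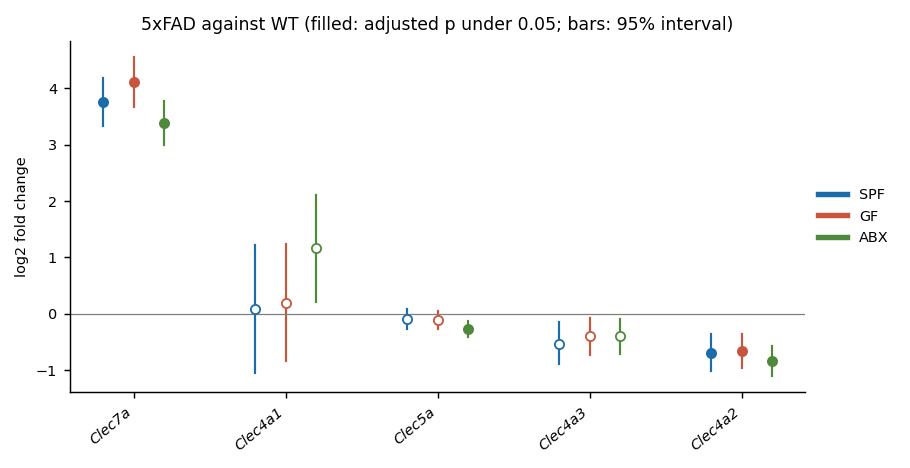
Genotype difference (log2 fold change, 5xFAD relative to WT) for the 5 members with reads in every library, in SPF, GF and ABX mice, with bars for the 95% interval and filled points for an adjusted p under 0.05. *Clec7a* stands between 3.38 and 4.11, and *Clec4a2* between -0.84 and -0.66.

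*Clec12a*, an inhibitory receptor for uric acid crystals, had no read in the 5 SPF WT and the 5 ABX WT mice. The SPF 5xFAD mice had 41, 52 and 21 reads (2.23, 2.56 and 1.13 CPM), and the 6 ABX 5xFAD mice had 10, 216, 16, 292, 72 and 91 reads, from 0.564 to 12 CPM. Taking 3 reads per library as the limit that a count of 0 allows, these means were at least 14.6 times and at least 33.6 times higher than in SPF WT and ABX WT mice. The edgeR adjusted p was 0.00821 in SPF and 0.000613 in ABX mice. GF mice did not show this: 3 of the 4 GF WT mice had 68, 57 and 33 reads and 1 had none, and the 5 GF 5xFAD mice had 152, 62, 0, 33 and 27 reads. The GF groups overlapped widely, at 2.35 ± 1.79 CPM (n = 4) and 2.76 ± 3.16 CPM (n = 5), with a log2 fold change of 0.23 ± 1.02 (adjusted p = 0.918).

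*Clec4n* followed a like order at lower counts. It had no read in the 5 SPF WT mice and 0, 6 and 9 reads in the SPF 5xFAD mice. Of the 5 ABX WT mice 1 had 2 reads and the others none, whereas the 6 ABX 5xFAD mice had 13, 71, 61, 94, 21 and 21 reads, from 0.733 to 3.88 CPM. Pooled over libraries the ABX ratio was 113, with a 95% counting interval of 31.1 to 940 that leaves out the spread between mice. The edgeR adjusted p, which includes that spread, was 0.00124. In SPF mice the adjusted p was 0.0722, or 0.0294 in DESeq2 and 0.044 with voomWithQualityWeights. The GF WT mice had 0, 3, 24 and 0 reads and the GF 5xFAD mice 24, 0, 52, 32 and 43 reads, with an adjusted p of 0.257, or 0.026 without WT_GF_230, the one WT mouse with 24 reads. *Clec4a1* had 2.61 ± 1.9 CPM (n = 6) in ABX 5xFAD and 1.17 ± 0.415 CPM (n = 5) in ABX WT mice, a log2 fold change of 1.16 ± 0.463 with an adjusted p of 0.0948. It passed in 5 of 39 alternatives, with at least 10 counts in every library (0.0417), without FAD_ABX_1151 (0.0433), without FAD_ABX_1482 (0.0472) and without both (0.0144, or 0.0113 with voomWithQualityWeights). In SPF and GF mice its values were 0.09 ± 0.556 and 0.19 ± 0.506.

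Markers of border-associated macrophages were called higher in 5xFAD mice in the comparisons that called *Clec12a*, SPF and ABX, the second of which also called *Clec4n*. Because *Mrc1*, *Cd209f* and *Clec10a* in that list are lectins themselves, the other 7 markers were summed alone, and the sum was 0.193 to 1.36 CPM in SPF WT, 0 to 0.701 in ABX WT, 11.7 to 17.1 in SPF 5xFAD, 1.65 to 32.4 in GF WT, 5.73 to 56.6 in GF 5xFAD and 20.5 to 166 CPM in ABX 5xFAD mice. In FAD_ABX_1452, FAD_ABX_1453 and FAD_ABX_1455 it was 161, 146 and 166 CPM, and these mice had the 3 highest *Clec4n* values of all, 2.9, 3.52 and 3.88 CPM, and the 3 highest *Clec4a1* values, 2.57, 3.69 and 5.81 CPM. *Clec12a* differed among them, with 8.81, 0.923 and 12 CPM. All 10 markers of the list were called higher in ABX 5xFAD than in ABX WT mice, 7 of 10 in SPF and 0 of 10 in GF mice, and *Cd163* and *Lyve1* had no read in SPF WT and ABX WT mice. Without the 3 mice, the ABX difference was still called for *Clec12a* (adjusted p = 0.0031) and *Clec4n* (0.0174), and that of *Clec4a1* fell to 0.02 (log2), with an adjusted p of 0.992. The sum in the 3 remaining ABX 5xFAD mice, 20.5, 59.1 and 83 CPM, was still above every ABX WT mouse, and its part in the result was not tested. The monocyte sum was 57.8 and 59.2 CPM in FAD_ABX_1452 and FAD_ABX_1455, the mice with the highest *Clec12a* values, and 26.5 CPM in FAD_ABX_1453, and the dendritic cell sum was 109, 82.1 and 71.7 CPM in these mice. Of the monocyte markers 8 were tested, and 2 were called higher in SPF and 4 higher and 1 lower in ABX 5xFAD mice. Of the dendritic cell markers 9 were tested, and 0 and 3 were called higher. The lectin *Cd209a* was among the dendritic cell markers called higher in ABX 5xFAD mice. The neutrophil sum was 62.5 to 265 CPM in the SPF 5xFAD mice and at most 0.336 CPM in the SPF WT mice. The part of these sums was not tested either.

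**Figure D3:**
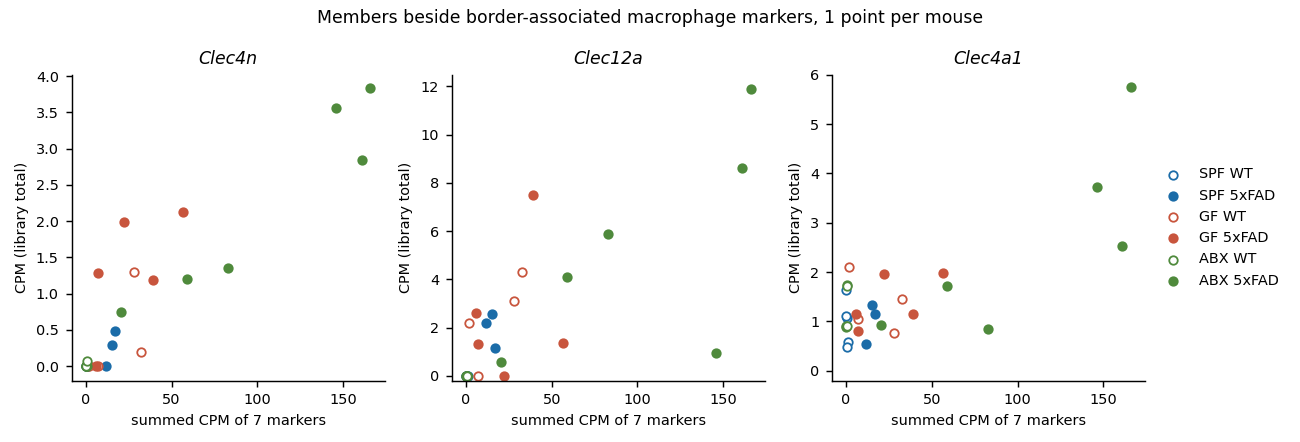
Expression of *Clec4n*, *Clec12a* and *Clec4a1* against the summed CPM of 7 markers of border-associated macrophages, both per library total, with 1 point per mouse, open for WT and filled for 5xFAD. The 3 ABX 5xFAD mice at 146 to 166 CPM of markers hold the highest *Clec4n* and *Clec4a1* values, and 1 of them has 0.932 CPM of *Clec12a*.

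*Clec4e* and *Clec4d*, which encode the glycolipid receptors Mincle and MCL and are typical of neutrophils and monocytes, gave 5 and 13 reads in all. *Clec4e* had 4 reads in WT_GF_230 and 1 in FAD_SPF_1148, and *Clec4d* had 8 reads in FAD_GF_181 and 5 in FAD_ABX_1455. No read of *Clec4d* was found in the 3 SPF 5xFAD mice or in FAD_ABX_1151, the libraries with 62.5 to 265 CPM of neutrophil markers. A count of 0 in a library allows up to 3 reads, on average 0.157 CPM in the SPF 5xFAD mice, and covers counting error only.

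The second comparison asked whether the microbial condition changes these genes within a genotype. Within 5xFAD mice, GF against SPF mice gave no called member with edgeR, where 12.8% of all genes were called. With voomWithQualityWeights *Clec7a* (adjusted p = 0.0427) and *Clec4a2* (0.045) passed in this comparison. ABX against SPF mice gave none (0% of all genes, with 1085 genes at an unadjusted p under 0.05, and 8 called by DESeq2 and 134 by voomWithQualityWeights). GF against ABX 5xFAD mice gave 1 called member, against 10.6% of all genes. This was *Clec7a*, at 453 ± 88.9 CPM (n = 5) in GF and 309 ± 29.8 CPM (n = 6) in ABX mice, 4 of the 5 GF mice standing above the highest ABX mouse. The log2 difference was 0.55 ± 0.166, or 1.47 times, with an edgeR adjusted p of 0.0306. It was not robust: the adjusted p was 0.066 when libraries were scaled by their totals alone, 0.0626 without FAD_ABX_1151 and FAD_ABX_1482, 0.0531 to 0.0871 when any 1 of 7 single mice was left out, and the exact permutation p of 0.013 became 0.0851 over 81 tests. The *Clec7a* difference between GF and SPF 5xFAD mice was 0.18 with edgeR (95% interval -0.23 to 0.60, adjusted p = 0.612) and 0.38 with voomWithQualityWeights, which called it. It rested on single mice of the SPF group, being 0.47 without FAD_SPF_1144, the mouse at 544 CPM, and 0.03 and 0.06 without FAD_SPF_1146 and FAD_SPF_1148. The ABX and SPF 5xFAD mice differed by -0.37 (-0.76 to 0.03, adjusted p = 0.722), by -0.17 with voomWithQualityWeights, and by -0.08 without FAD_SPF_1144.

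With edgeR, TMM scaling and the filter on low counts over all 28 libraries, no other member was called between conditions in 5xFAD mice, and several passed under other settings. *Clec4a2* was at 34 ± 6.54 CPM in GF, 43.2 ± 2.08 in SPF and 44.8 ± 6.47 in ABX 5xFAD mice, and GF against ABX mice gave -0.40 ± 0.134 with an adjusted p of 0.0511. It passed in 13 of 39 alternatives, among them RLE factors (0.0494), library size alone (0.0259), DESeq2 (0.0282) and the fit without FAD_GF_201 (0.0162). *Clec5a* was at 177 ± 13, 205 ± 25 and 200 ± 13.6 CPM in the same order, with adjusted p of 0.0953 against SPF (0.0445 in DESeq2) and 0.102 against ABX mice. Both passed the threshold with library size alone (0.0162 and 0.0171) and without FAD_GF_201 (0.0437 and 0.0469). *Clec4a3* passed in GF against ABX mice without FAD_GF_184 (0.0284). *Clec4n* was at 2.28 ± 1.32 CPM in ABX and 0.26 ± 0.244 CPM in SPF 5xFAD mice, where all 6 ABX mice stood above the 3 SPF mice, and the edgeR adjusted p was 0.658, or 0.0298 with voomWithQualityWeights on 26 mice, without FAD_ABX_1151 and FAD_ABX_1482. Pooled over all 6 ABX and 3 SPF 5xFAD libraries, the ratio was 9.19 with a counting interval of 5.48 to 16.6, which leaves out the spread between mice. *Clec4a1* in ABX against SPF 5xFAD mice had an adjusted p of 0.658 with edgeR, and 0.0341 with voomWithQualityWeights on the same 26 mice. *Clec12a* was at 5.43 ± 4.49, 1.97 ± 0.748 and 2.76 ± 3.16 CPM in ABX, SPF and GF 5xFAD mice, and all 3 groups overlapped.

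Within WT mice, members were called only in comparisons that included the germ-free animals. ABX against SPF WT mice gave no called member (0% of all genes, with 687 at an unadjusted p under 0.05, and 2 called by DESeq2 and 0 by voomWithQualityWeights). GF against SPF WT mice gave 1, *Clec12a*, where 1.62% of all genes were called, and GF against ABX WT mice gave 3, where 6.88% were called. *Clec12a* was at least 17.4 times higher in GF than in SPF WT mice (adjusted p = 0.0198) and at least 14.5 times higher than in ABX WT mice (0.0093), in 3 of 4 GF mice. With voomWithQualityWeights the call against ABX WT mice was lost (0.0957). *Clec4a2* was lower in GF than in ABX WT mice, at 53.8 ± 5.33 CPM (n = 4) against 80.4 ± 16.3 CPM (n = 5), with a log2 difference of -0.58 ± 0.148 (adjusted p = 0.0171), and *Clec5a* at 191 ± 8.12 against 242 ± 13.1 CPM, with -0.34 ± 0.0784 (0.00935). Neither pair of groups overlapped. The *Clec4a2* call was lost without WT_GF_199 (0.0511) or WT_ABX_911 (0.0779). *Clec4a2* and *Clec5a* of the 4 GF WT mice also lay below all 5 SPF WT mice, by -0.37 and -0.20, without passing the threshold (0.183 and 0.186). The ABX WT mice lay above the SPF WT mice by 0.21 and 0.14 (log2) for these 2 genes, likewise without a call. The sum of border-associated macrophage markers without lectins was 7.21, 32.4, 28 and 1.65 CPM in the 4 GF WT mice, of which the first had no *Clec12a* read and the others 68, 57 and 33 reads. Of its 7 markers, 5 were called higher in GF than in SPF WT mice, and 5 in GF than in ABX WT mice. The part of this sum in the *Clec12a* result was not tested. The *Clec12a* call against SPF WT mice was lost without WT_GF_229 (0.0647) or WT_SPF_912 (0.0516).

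**Figure D4:**
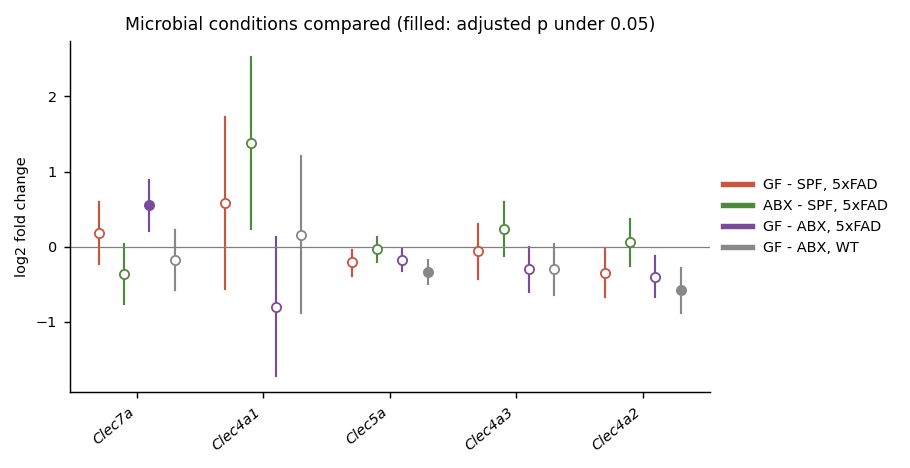
Log2 differences between microbial conditions for the 5 members with reads in every library, within 5xFAD mice and, for GF against ABX, within WT mice, with bars for the 95% interval and filled points for an adjusted p under 0.05. *Clec7a* is called in GF against ABX 5xFAD mice at 0.55, and *Clec4a2* and *Clec5a* in GF against ABX WT mice at -0.58 and -0.34.

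Whether the genotype difference itself depends on the microbial condition was tested as an interaction. No member was called for GF against SPF mice or for ABX against SPF mice, where 0% and 0% of all genes were called at this threshold, with 1304 and 1032 genes at an unadjusted p under 0.05, and 25 and 1 called by DESeq2 and 116 and 14 by voomWithQualityWeights. For ABX against GF mice 1 member was called, against 1.76% of all genes. This was *Clec12a* (adjusted p = 0.0293), whose difference of at least 33.6 times in ABX mice stood beside means of 2.35 and 2.76 CPM in the GF groups. The same interaction called 8 of the 10 border-associated macrophage markers higher, and 6 of the 7 without lectins. Their part in the *Clec12a* result was not tested. The *Clec12a* call was lost without FAD_ABX_1452, FAD_ABX_1453 and FAD_ABX_1455 (edgeR adjusted p = 0.0506) and with voomWithQualityWeights (0.114). It was also lost in edgeR without any 1 of WT_GF_229, WT_ABX_909, WT_ABX_910, WT_ABX_911 and FAD_GF_185 (0.0503 to 0.0605). The *Clec7a* difference was smaller in ABX than in GF mice by -0.73 ± 0.256 (95% interval -1.25 to -0.21), with an adjusted p of 0.139, or 0.0466 without WT_ABX_932. That of *Clec4a2* differed by -0.18 (-0.58 to 0.23).

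The genes whose level followed each member most closely over the 28 libraries were sought among 8930 well-expressed genes, by Pearson's r of log2 CPM. The libraries share the genotype difference, so r is a description. *Clec7a* was followed most closely by *Cst7*, *Ank*, *Ctsb*, *Itgax* and *Nceh1*, with r of 0.992, 0.986, 0.98, 0.977 and 0.977, which fell to 0.484 to 0.694 once each group's mean was removed. *Clec4a2* ran with *Maf*, *Ecscr* and *Gpr34* (0.924, 0.92 and 0.913) and *Clec5a* with *Gpr34*, *P2ry12* and *Commd8* (0.885, 0.854 and 0.854), of which *P2ry12* and *Gpr34* are microglial markers. *Clec4a3* ran with *Lst1* (0.863), with its neighbour *Clec4a2* (0.845, and 0.641 within groups) and with *Agmo* (0.84). *Clec12a* ran with the class II antigen presentation genes *H2-Ab1*, *Cd74* and *H2-Eb1* (0.872, 0.862 and 0.862) and *Clec4n* with *Dab2*, *Cd74* and *Ifi204* (0.879, 0.817 and 0.811). *Clec4a1* had no close follower, the highest r being 0.63 with *Dnajb6*, 0.627 with *Arpp19* and 0.626 with *Timm9*. Between members, *Clec7a* and *Clec4a2* ran against each other over all libraries (r = -0.80) and not within groups (-0.09).

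Among the adaptor genes, *Tyrobp* and *Hcst* were higher in 5xFAD mice under each condition and *Fcer1g* in GF mice. Of 28 genes of the pathway, 27 were tested; 2 were called higher and 1 lower in SPF, 3 higher and 7 lower in GF and 4 higher and 2 lower in ABX mice. Of all genes 3.73% were called higher and 0.837% lower in SPF, 9.43% and 6.2% in GF and 9.45% and 4.98% in ABX mice. The list had median log2 fold changes of -0.08, -0.07 and 0.07, beside -0.03, -0.03 and -0.01 over all genes. *Tyrobp*, the adaptor DAP12 of *Clec5a*, was at 894 ± 87.1 CPM in SPF WT and 1955 CPM in SPF 5xFAD mice and was called higher in all 3 conditions, by 1.13 ± 0.147, 1.83 ± 0.145 and 0.95 ± 0.127. *Hcst*, which encodes the related adaptor DAP10, was called higher by 0.67 ± 0.175, 1.55 ± 0.169 and 0.69 ± 0.149. *Fcer1g*, the adaptor of Dectin-2, Mincle and MCL, was called in GF mice (0.75 ± 0.125, adjusted p = 6.76e-05) and had 0.31 ± 0.133 and 0.12 ± 0.111 in SPF and ABX mice. The genotype difference of these 3 adaptors was larger in GF than in ABX mice, with interactions of -0.88 (adjusted p = 0.0157) for *Tyrobp*, -0.87 (0.0419) for *Hcst* and -0.63 (0.048) for *Fcer1g*. A further pathway gene was called in this interaction, in the other direction: *Inpp5d*, which encodes the inositol phosphatase SHIP1, with 0.55 ± 0.123 (0.0237), was lower in GF mice (-0.30, adjusted p = 0.0252) and higher in ABX mice (0.25, 0.0368).

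Downstream, the kinase *Syk* was called lower in GF mice (-0.41 ± 0.127, adjusted p = 0.0253) and had -0.21 and -0.25 in SPF and ABX mice. *Nfkb1*, a subunit gene of NF-kB, and *Prkcd*, the kinase that links Syk to CARD9, were called lower in GF mice, by -0.49 ± 0.0963 (0.000469) and -0.28 ± 0.0711 (0.00559). *Casp8*, a caspase that Dectin-1 can engage, was called lower in SPF and GF mice, by -0.38 ± 0.11 and -0.48 ± 0.0994. The Src-family kinase *Lyn* was called lower in GF and ABX mice, by -0.25 ± 0.0646 and -0.18 ± 0.0583, and the inflammasome adaptor *Pycard* in ABX mice, by -0.30 ± 0.0725. *Card9*, the scaffold shared by Dectin-1, Dectin-2 and Mincle, was not called in any of these comparisons, with log2 fold changes of -0.12, 0.20 and 0.07.

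**Figure D5:**
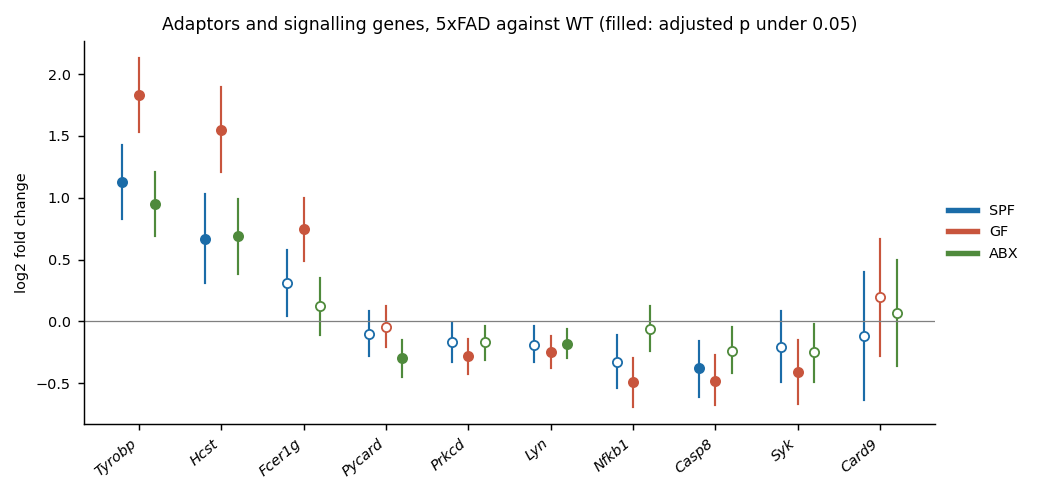
Genotype difference (log2 fold change, 5xFAD relative to WT) for 10 adaptor and signalling genes of the receptors in SPF, GF and ABX mice, with bars for the 95% interval and filled points for an adjusted p under 0.05. *Tyrobp* and *Hcst* are called higher in all 3 conditions, with the highest values, 1.83 and 1.55, in GF mice, and the called kinases lie at or under -0.18.

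Of 35 other C-type lectin receptor genes, 24 passed the filter on low counts, and of these 6 were called higher in SPF, 7 in GF and 16 in ABX 5xFAD mice, while 0, 0 and 2 were called lower, against the shares of all genes given for the pathway. Of the 24, 7 had no read in the SPF WT, 2 in the GF WT and 9 in the ABX WT group, and 2, 2 and 9 of the higher calls were among these. Such genes passed the filter through other groups, so the balance of higher and lower calls was partly fixed by the filter and is given as a description of the genes that passed. With genes at 0 in a group held at the limit of 3 reads per library, and those at or under it in both groups left out, the median log2 fold change was 1.48 in SPF (22 genes), 1.24 in GF (23 genes) and 2.52 in ABX mice (24 genes), and 1.94, 1.14 and 4.45 as fitted. *Cd72*, an inhibitory receptor of B cells that microglia also transcribe, was called higher in all 3 conditions, from 8.87, 8.36 and 7.96 CPM in SPF, GF and ABX WT mice to 35.1, 50.1 and 34.2 CPM in 5xFAD mice. *Klrb1b* had at most 0.198 CPM in a WT mouse and 2.55, 3.82 and 2.03 CPM in the SPF, GF and ABX 5xFAD groups, called in each. *Clec1a* was called higher in GF and ABX mice, by 2.30 ± 0.51 and 2.74 ± 0.469. *Mrc1*, the mannose receptor of border-associated macrophages, and *Mgl2*, *Cd209a*, *Cd209f* and *Clec10a* were called in ABX mice, where their means were 50.6, 16.4, 17.4, 4.06 and 4.78 CPM; *Mrc1* had 4.35 CPM in ABX WT mice and the other 4 a mean of at most 0.0868 CPM. *Cd209f* (adjusted p = 0.0383) and *Clec10a* (0.0167) were also called higher in SPF mice and *Cd209a* (0.000987) in GF mice. Of the 7 other macrophage markers given above, 7 were called higher in ABX, 5 in SPF and 0 in GF mice, and their part was not tested.

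Of 5 genes of endogenous ligands, 2, 2 and 3 were called higher and 0 lower under SPF, GF and ABX conditions, with median log2 fold changes of 0.96, 1.26 and 1.81. Over all genes 3.73%, 9.43% and 9.45% were called higher in these conditions, and the medians were -0.03, -0.03 and -0.01. *Anxa5*, one of the annexins that Dectin-1 can bind, was called higher in all 3 conditions, at 123, 215 and 125 CPM in SPF, GF and ABX 5xFAD mice against 39.3, 47 and 35.7 CPM in WT mice. *Vim*, which encodes vimentin, was called in GF and ABX mice, by 1.65 ± 0.324 and 2.31 ± 0.306. *Anxa1* was called in SPF and ABX mice and was scarce: the 3 SPF 5xFAD mice had 2.42 to 7.13 CPM and the SPF WT mice none, beside the neutrophil markers given above. *Lgals9* and *Sap130*, ligand genes of Dectin-1 and Mincle, were not called, with log2 fold changes from -0.05 to 0.23 and from -0.30 to 0.29.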

How the data were processed

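RNA from hippocampal microglia of 28 mice was sequenced by the study from 300 pg of RNA each, as unstranded single reads. The authors aligned the reads with STAR (2.7.2), counted them per gene with featureCounts (1.6.2) and deposited raw counts without normalization; coordinates are those of GRCm38, although the processing notes in the labels list a human build. The members and gene lists were chosen with earlier results of these data known. In R 4.3.3, edgeR 4.0.16 was run with TMM scaling, filterByExpr (minimum count 10, total 15) and 1 term per group over all 28 mice, and 15298 of 48587 genes were tested after 92 spike-in entries were set aside. The rule for named genes took all 9 members, at most 8 genes of each list that passed the threshold in 5xFAD against WT under any condition, by smallest adjusted p, and the 3 genes most alike (5 for *Clec7a*) with a mean log2 CPM of at least 3; *Syk*, *Card9*, *Inpp5d*, *Lgals9* and *Sap130* were added after their values were seen. CPM were computed from the TMM-scaled library total, and marker sums use the library total. TPM divide by the deposited gene length. Each library is 1 mouse, so p-values measure the spread between mice. Chi-square tests between libraries of a group gave at least 6.92 for each degree of freedom in all 54 pairs, far above sampling noise, so each library was kept as its own sample. Exact two-sided permutation tests used log2 CPM. Alternatives were other scalings and filters, limma 3.58.1 (voomWithQualityWeights), DESeq2 1.42.0, only the groups compared, and mice left out; leaving out FAD_ABX_1452, FAD_ABX_1453 and FAD_ABX_1455, and voomWithQualityWeights on 26 mice, were chosen after seeing the data. Scripts were tested on simulated data. Protein sequences were not used here.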

Additional observations from a re-analysis of the deposited data

Results flagged for a closer look

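Among 35 sets of values, each of 1 member in 1 group of 4 to 6 mice with any spread, 5 held a mouse far from the rest. Chance gives about 1 in 20 for continuous values, a rate that cannot be applied here, since in 4 of the 5 sets a single mouse had reads and was therefore picked out by construction. *Clec4d* was at 0.427 CPM in FAD_GF_181 and 0.206 CPM in FAD_ABX_1455, with every other mouse of the group at 0. *Clec4e* was at 0.215 CPM in WT_GF_230, the other GF WT mice being at 0. The same mouse had 1.29 CPM of *Clec4n*, against 0 to 0.186 CPM in the other GF WT mice. *Clec4n* was at 0.0659 CPM in WT_ABX_932, with 0 in the other ABX WT mice.

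The 5xFAD difference of *Clec12a* differed between ABX and GF mice in the interaction test (edgeR adjusted p = 0.0293). That test also called 8 of 10 markers of border-associated macrophages higher, and their part was not tested.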

How the results depend on the processing

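Of 3242 member values under the alternatives, 3153 kept their side of the threshold, 33 lost and 56 gained a call, and 0 reversed a called direction. Of the 3153, 3068 also kept their sign and 85 uncalled values changed it, in 22 of the 84 member and comparison pairs and by at most 0.72 from 0 (log2); *Clec12a* in GF 5xFAD against WT mice ran from -0.72 to 0.68 and *Clec4a1* in SPF mice from -0.16 to 0.50. In 5xFAD against WT, *Clec7a* and, in GF and ABX mice, *Clec4a2* kept their calls under every alternative. The number of members called moved by over 1.5 times as follows, and the cause was not tested. In SPF 5xFAD against WT mice it was 5 in place of 3 with voomWithQualityWeights, on 28 or 26 mice, and in GF mice 4 in place of 2 with library size alone. In GF against SPF 5xFAD mice it was 1 with library size alone, 2 with voomWithQualityWeights (1 on 26 mice) and 1 with DESeq2, in place of 0. In ABX against SPF 5xFAD mice it was 2 with voomWithQualityWeights on 26 mice. In GF against ABX 5xFAD mice, 1 became 2 with RLE factors, library size alone, at least 10 counts in every library or DESeq2, and 0 at an adjusted p of 0.01, on 26 mice or without FAD_ABX_1452, FAD_ABX_1453 and FAD_ABX_1455. In GF against SPF WT mice, 1 became 2 without a filter or on 26 mice, and 0 with at least 10 counts, at 0.01 or with only the groups compared. The 1 interaction call of ABX against GF mice became 0 with at least 10 counts, which removes *Clec12a*, with voomWithQualityWeights on 28 or 26 mice, at 0.01, with only the groups compared and without the 3 mice.

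Leaving out each mouse in turn gave 2 to 4, 2 to 3 and 5 to 6 called members for 5xFAD against WT in SPF, GF and ABX mice. It gave 0 to 1, 0 to 0 and 0 to 3 for GF against SPF, ABX against SPF and GF against ABX in 5xFAD mice, 0 to 2, 0 to 0 and 2 to 3 in WT mice, and 0 to 0, 0 to 0 and 0 to 2 for the interactions of GF against SPF, ABX against SPF and ABX against GF. Over all genes, 699 called in SPF 5xFAD against WT mice became 2154 with voomWithQualityWeights and 1340 with only the groups compared; 2207 in ABX mice became 1321 with only the groups compared, and 1621 in GF against ABX 5xFAD mice became 251. In GF against SPF WT mice 248 became 1631 with voomWithQualityWeights, 707 with DESeq2 and 1286 with only the groups compared. With voomWithQualityWeights, 1962 in GF against SPF 5xFAD mice became 3872 and 1053 in GF against ABX WT mice 2025 (1606 with DESeq2), and on 26 mice 0 in ABX against SPF 5xFAD mice became 552 and 0 in the interactions of GF and ABX against SPF mice 215 and 101. In the interaction of ABX against GF mice 269 became 576 with DESeq2 and 67 with only the groups compared. Library size alone moved the median of all genes by -0.12 in GF 5xFAD against WT mice. No paired analysis was possible because the mouse numbers are unique to each mouse.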
